A study of Mus musculus with 6 samples.

Results

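The machinery of the secretory pathway was followed through 50 genes, which carry secreted proteins from the ribosome into the endoplasmic reticulum (ER) and on to the Golgi. The members were chosen by symbol as the known components of the signal recognition particle, the translocon, signal peptidase, the glycosylation complex, the ER chaperones and the COPII and COPI coats, together with cargo receptors and a pair of transcription factors. Of the 16593 genes that the probe annotation names, 48 of these 50 were represented, with 59 of the 25697 probes, and 41 of them could be tested among 8111 genes. Most tested members had less signal in cementoblasts than in osteoblasts, with 34 of 41 differences below 0 and a median of -0.26 on the log2 scale, but none passed the test.

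Illumina bead arrays measured the RNA of GFP-positive cells that were sorted from mice of strain C57Bl6/J that carry OC-GFP, a reporter of osteocalcin, the bone matrix protein of mature matrix-forming cells. Cementoblasts, which lay down the mineralised layer of the tooth root, came from extracted molars, in 3 pools of 7, 10 and 6 mice aged 6 to 7, 5 to 6 and 6 to 7 weeks. Osteoblasts came from calvaria, the flat bones of the skull, in 3 pools of 6 mice each, aged 6, 5 to 6 and 6 to 7 weeks. All pools mixed both sexes and all animals carried the reporter, so each group is defined by the tissue and the GFP gate alone, and the calvarial digest began with a first fraction that was thrown away. Whether the same mice gave both tissues is not given in the sources used here. The p-values below therefore measure the spread between these pools.

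A secreted protein is recognised by its signal peptide as it leaves the ribosome, is brought to the ER membrane by the signal recognition particle, and passes through the Sec61 channel while its signal peptide is cut off and sugars are attached. Chaperones and disulfide isomerases fold it, COPII vesicles carry it to the Golgi, and COPI vesicles bring escaped ER residents back. Cells that make bone and cementum secrete large amounts of type I collagen, a long rigid cargo that needs prolyl hydroxylation in the ER and special help to leave it.

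The promoters of several members hold elements known from the ER stress response, which raises the secretory capacity of a cell. The windows below are stretches of the RefSeq promoter sequences (GRCm38.p6, 250 bases before to 50 after a start of the gene), given 5′ to 3′ on the strand of the gene. The first set shows the ER stress response element, a CCAAT box and a CCACG box separated by 9 bases, searched on both strands. The capitals mark the boxes, or their reverse complements where the element runs the other way. They are shown for 3 tested chaperone genes: Calr at chr8:84847045-84847123 (minus strand), Hsp90b1 at chr10:86705503-86705686 (minus strand) with 2 elements, and Pdia6 at chr12:17266461-17266539 (plus strand).
Calr: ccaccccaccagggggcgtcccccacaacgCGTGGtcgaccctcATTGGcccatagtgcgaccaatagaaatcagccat
Hsp90b1: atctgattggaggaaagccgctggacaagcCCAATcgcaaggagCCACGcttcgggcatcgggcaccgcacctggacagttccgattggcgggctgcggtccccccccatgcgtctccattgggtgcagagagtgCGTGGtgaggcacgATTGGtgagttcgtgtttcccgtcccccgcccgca
Pdia6: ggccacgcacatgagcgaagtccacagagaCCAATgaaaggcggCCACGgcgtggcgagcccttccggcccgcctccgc

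The second set shows the core of the unfolded protein response element, TGACGTGG or its reverse complement CCACGTCA, in capitals. It is shown for the 4 tested coat and receptor genes that hold it: Copb2 at chr9:98563694-98563761 (plus strand), Kdelr3 at chr15:79516348-79516415 (plus strand), Sec24d at chr3:123267440-123267507 (plus strand) and Sec23a at chr12:59011974-59012041 (minus strand). The window of Sec24d surrounds a start inside the gene, whose listed range begins upstream at chr3:123264801.
Copb2: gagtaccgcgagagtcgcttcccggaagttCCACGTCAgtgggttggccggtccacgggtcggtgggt
Kdelr3: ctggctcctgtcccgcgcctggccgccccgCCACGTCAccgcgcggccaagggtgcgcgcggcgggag
Sec24d: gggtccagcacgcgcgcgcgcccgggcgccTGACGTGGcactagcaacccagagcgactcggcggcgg
Sec23a: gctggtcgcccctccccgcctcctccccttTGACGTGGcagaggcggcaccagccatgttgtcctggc

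Promoter windows were given for 41 of the 50 members, 44 windows in all. The ER stress response element stood in 4 of the 44 (9.09%), those of Calr, Canx, Hsp90b1 and Pdia6, against 39 of all 32851 promoter windows (0.119%). The unfolded protein response core stood in 5 (11.4%), those of Copb1, Copb2, Kdelr3, Sec23a and Sec24d, against 222 of all windows (0.676%). No member held both, although the CCACG letters are part of each. The first element lay in chaperone genes, and the second in genes of vesicle coats and of retrieval to the ER. A match describes the letters in the window and is no evidence that a factor binds there. Members and elements were both chosen from what is known of the ER, so the higher shares are no independent test of a link.

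Probes were kept where their detection p-value was under 0.05 on at least 3 of the 6 arrays, and the brightest kept probe stood for a gene. Sec61g and Sec31a had no probe named here. The single probes of Sec62, Ssr1, Spcs2, Rpn1 and Kdelr1 were detected on 0 arrays, and those of Canx and Copb1 on 1 array, so these 7 genes were not tested. Among the 41 tested members, 37 (90.2%) were detected on all 6 arrays, against 61.7% of all tested genes. The exceptions were Pdia6 and Sec23b, each detected on 1 of 3 cementoblast arrays and 3 of 3 osteoblast arrays, and Tmed2 and Creb3l2, each detected on 2 of 3 and 3 of 3. For these 4 genes a difference is partly taken against background, and no fold is given. Each met the filter through its osteoblast arrays and would have missed it on the cementoblast arrays alone. Their lower values in cementoblasts are therefore partly set by the filter.

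The arrays differed in brightness and in the markers of other cells. Between 9791 and 10059 probes were detected on the cementoblast arrays, and 8480, 13347 and 12922 on osteoblast arrays 1, 2 and 3. The 9 mineralised matrix markers averaged 10.97, 10.65 and 12.17 log2 signal on cementoblast arrays 1, 2 and 3 and 11.78, 11.39 and 11.50 on the osteoblast arrays, with 8 or 9 detected on each. Cementoblast arrays 1 and 2 also held 7 and 6 detected epithelial markers of 9, where each other array held 1 or 2. In bulk samples of this kind, fewer cells of a type and less RNA per cell cannot be told apart.

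Across the members, no gene passed the limma test of cementoblasts against osteoblasts at an adjusted p of 0.05 (0 of 41), where 0.321% of all 8111 genes did. The members' adjusted p-values ran from 0.568 to 0.997. At an unadjusted p under 0.05, 2 members were lower in cementoblasts, Tmed2 and Copb2, beside 3.44% of all genes, and 0 were higher, beside 3.48%. In the fit by probe, 0 of the 50 kept member probes passed, beside 0.295% of all 11198. The groups did not overlap for 3 members, Tmed2, Copb2 and Pdia6, all lower in cementoblasts (5.57% of all genes), and 0 members lay wholly above (5.72% of all genes). Tmed2 and Pdia6 met the detection filter through the osteoblast arrays, so their separation is partly set by that filter. These counts over 41 genes lie near the background.

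The direction was less evenly spread than the calls. Of the members 82.9% had a difference below 0, against 52.5% of all genes, and their median was -0.26, against -0.02 for all genes. The differences ran from -0.81 for Creb3l1 to 0.60 for Spcs3, so none reached a doubling or a halving in the main fit. With scaling to each array's 75th percentile some passed a halving, among them Kdelr3 (-1.24), Copb2 (-1.10) and Sec13 (-1.06). Creb3l1 did so with the number of detected probes as a covariate (-1.43). The standard error had a median of 0.30, and the 95% interval stayed within 1 of 0 on the log2 scale for 18 of 41 members (43.9%), against 50.7% of all genes. For the other members, a change of that size lies inside the interval. With the submitters' values, with scaling to each array's 75th percentile and without background correction, 37, 36 and 35 of the 41 lay below 0, with medians of -0.20, -0.58 and -0.17. The median of each of the 10 role groups stayed below 0 under all 3 of these scalings. Some lay close to 0, such as -0.01 for the signal recognition particle with percentile scaling and -0.04 for the glycosylation complex without background correction. All role groups rest on the same 6 arrays, so their signs are not independent. The members below 0 include Pdia6, Sec23b, Tmed2 and Creb3l2, which met the detection filter through the osteoblast arrays. With a detection p under 0.01 required on all 6 arrays, 27 of 33 tested members lay below 0, against 55.2% of all genes. Their median was then -0.19.

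**Figure D1:**
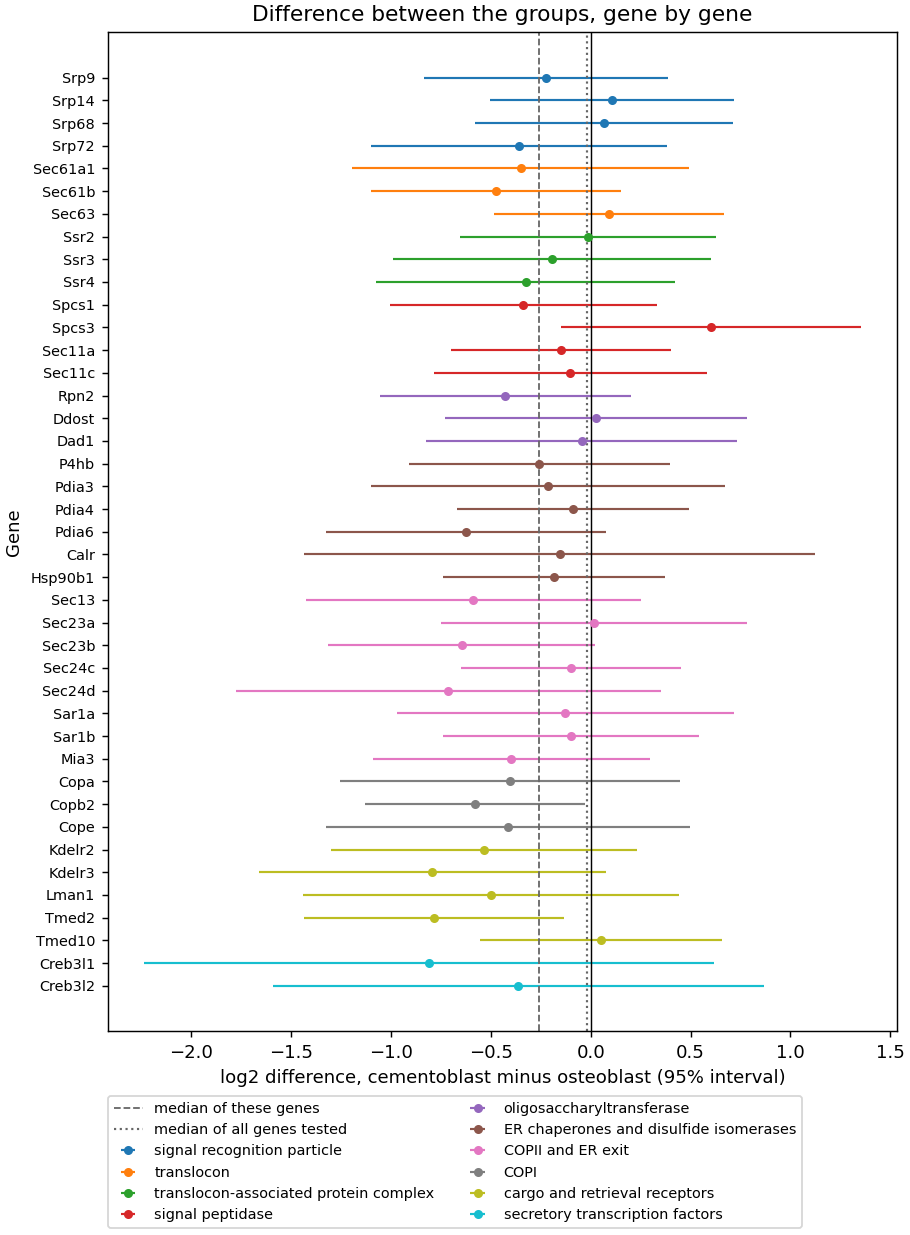
Difference between cementoblasts and osteoblasts for each of the 41 tested members, as cementoblast minus osteoblast on the log2 scale. Points are limma estimates with 95% intervals, coloured by role, the dashed line is the members' median of -0.26 and the dotted line the median of all genes, -0.02. Points below 0 outnumber those above by 34 to 7, and the intervals of Tmed2 and Copb2 alone exclude 0.

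The signal recognition particle had genes on both sides of 0. Its Alu-domain subunits are Srp9 and Srp14, which slow translation, and Srp68 and Srp72 form a heterodimer within the particle. Of its 4 tested genes, 2 lay below 0 and 2 above, with a median of -0.08; with percentile scaling Srp14 and Srp72 changed sides. Srp9 had 7.44, 7.46 and 7.53 log2 signal on cementoblast arrays 1, 2 and 3, against 8.12, 7.50 and 7.49 on osteoblast arrays 1, 2 and 3. Only osteoblast array 1 stood apart for Srp9, and the other arrays lay together. The difference was -0.23 (SE 0.26, adjusted p = 0.968), and a second probe of Srp9 gave 0.44. Srp72 had 5.12, 4.79 and 5.33 on the cementoblast arrays and 5.91, 5.49 and 4.91 on the osteoblast arrays, which overlapped (difference -0.36, SE 0.32, adjusted p = 0.948). Srp14 and Srp68 differed by 0.11 and 0.07.

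The translocon is the Sec61 channel with its helpers. The channel's pore is Sec61a1 and its small subunit Sec61b; Sec62 and Sec63 help proteins that enter after they have been made. Of 3 tested genes, 2 lay below 0, and with the submitters' values or percentile scaling Sec63 joined them. Sec61b had 7.80, 7.54 and 8.14 on the cementoblast arrays, against 8.55, 8.04 and 8.31 on the osteoblast arrays, and the groups overlapped in a single pair, cementoblast array 3 over osteoblast array 2. Its difference was -0.47 (95% interval -1.10 to 0.15, adjusted p = 0.865), and a second probe of Sec61b gave -0.59. Sec61a1 had 7.22, 7.64 and 8.14 on the cementoblast arrays and 8.60, 7.54 and 7.92 on the osteoblast arrays, with cementoblast array 1 lowest and osteoblast array 1 highest (difference -0.35, SE 0.36). Sec63, the third tested gene, differed by 0.09, and its second probe by -0.06.

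The translocon-associated protein complex, which sits beside the channel, was measured through 3 of its 4 genes, all with differences below 0. Ssr3, one of its membrane subunits, had 10.63, 10.50 and 11.33 on the cementoblast arrays, against 11.53, 10.61 and 10.91 on the osteoblast arrays. Cementoblast array 3 lay close to osteoblast array 1 and the other arrays lay below both, so the groups overlapped (difference -0.19, SE 0.34, adjusted p = 0.982). Ssr4 had 9.64, 9.70 and 10.10 on the cementoblast arrays and 10.72, 9.72 and 9.96 on the osteoblast arrays, and here osteoblast array 1 stood alone at the top. The difference of Ssr4 was -0.33 (SE 0.32), and that of Ssr2 was -0.01.

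Signal peptidase, which cuts the signal peptide off, held the member that lay furthest above 0. Spcs3, an accessory subunit that the enzyme needs, had 8.20, 7.43 and 7.84 on the cementoblast arrays, against 7.72, 7.04 and 6.91 on the osteoblast arrays. Cementoblast arrays 1 and 3 were above every osteoblast array, and cementoblast array 2 was below osteoblast array 1. The difference was 0.60 (95% interval -0.15 to 1.35), a fold of 1.52, with an adjusted p = 0.835. Spcs1, a small membrane subunit, had 10.01, 9.99 and 10.63 on the cementoblast arrays and 10.82, 10.26 and 10.56 on the osteoblast arrays (difference -0.34, SE 0.29, adjusted p = 0.946). A second probe of Spcs1 gave -0.17. The catalytic subunits differed by -0.15 for Sec11a and -0.10 for Sec11c. The subunits of this enzyme thus lay on both sides of 0.

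The oligosaccharyltransferase complex attaches N-linked sugars to new proteins. Its 3 tested genes had a median of -0.05. Rpn2, a structural subunit, had 10.14, 10.18 and 10.59 on the cementoblast arrays and 11.03, 10.42 and 10.74 on the osteoblast arrays, and the groups overlapped, with cementoblast array 3 above osteoblast array 2. The difference was -0.43 (SE 0.27, adjusted p = 0.889). Dad1, a small subunit also known as a defender against cell death, had 9.24, 9.25 and 10.10 on the cementoblast arrays, against 9.72, 9.16 and 9.86 on the osteoblast arrays. Its highest value was cementoblast array 3 and its lowest osteoblast array 2, and the difference of -0.05 (SE 0.34) was smaller than the spread within each group. Ddost differed by 0.03, a sign that turned with the submitters' values and with percentile scaling.

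All 6 tested chaperones and disulfide isomerases had differences below 0 (median -0.20), except Pdia6 under percentile scaling, and none of them passed the test. P4hb, disulfide isomerase and also the beta subunit of the prolyl 4-hydroxylase that modifies collagen, had 10.72, 10.87 and 11.25 on the cementoblast arrays, against 11.55, 10.87 and 11.20 on the osteoblast arrays. The groups overlapped, with cementoblast array 3 above osteoblast arrays 2 and 3 (difference -0.26, SE 0.28, adjusted p = 0.963). Pdia6, another disulfide isomerase, whose promoter holds the stress element shown above, had 4.18, 4.37 and 5.14 on the cementoblast arrays and 5.22, 5.15 and 5.19 on the osteoblast arrays. Every cementoblast array was below every osteoblast array, but cementoblast array 3 only narrowly, and 2 cementoblast arrays were at background. The difference was -0.62 (SE 0.30, adjusted p = 0.777).

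Calr, calreticulin, a chaperone of glycoproteins that also binds calcium in the ER, had the widest spread of this class. It had 8.15, 8.12 and 6.25 on the cementoblast arrays, against 7.60, 8.26 and 7.13 on the osteoblast arrays. Cementoblast array 3, which was the highest cementoblast array for most members, was by far the lowest for Calr. The difference was -0.16 (95% interval -1.43 to 1.12, adjusted p = 0.997). The remaining genes of the class differed by -0.21 for Pdia3, the isomerase of glycoproteins, -0.09 for Pdia4 and -0.18 for Hsp90b1, the ER form of Hsp90. None of these intervals excluded 0.

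COPII coats bud the vesicles that leave the ER, and 7 of their 8 tested genes lay below 0 (median -0.26), all but Sec23a, with Mia3 in its place under percentile scaling. The small GTPases Sar1a and Sar1b start the coat, the Sec23 and Sec24 proteins form its inner layer and choose cargo, Sec13 belongs to the outer layer, and Mia3 helps to load collagen. Sec24d, mutated in humans with a brittle bone disorder, had 5.11, 5.79 and 6.71 on the cementoblast arrays, against 7.18, 6.50 and 6.08 on the osteoblast arrays. The cementoblast arrays spread more widely than the osteoblast arrays, and cementoblast array 3 was above osteoblast arrays 2 and 3. The difference was -0.71 (SE 0.46, adjusted p = 0.890). A promoter window of Sec24d, around a start inside the gene, holds the unfolded protein response core shown above.

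Sec23b had 4.69, 4.51 and 5.23 on the cementoblast arrays and 5.15, 5.63 and 5.58 on the osteoblast arrays, with the only crossing between cementoblast array 3 and osteoblast array 1. The difference was -0.65 (95% interval -1.32 to 0.02, adjusted p = 0.723), in a gene at background on 2 cementoblast arrays. Its relative Sec23a, mutated in humans with a craniofacial disorder and holding the same promoter core as Sec24d, differed by 0.02 (95% interval -0.75 to 0.78). Sec13 had 9.43, 9.54 and 9.98 on the cementoblast arrays, against 10.98, 9.88 and 9.86 on the osteoblast arrays. Osteoblast array 1 stood far above the rest for Sec13, and the other osteoblast arrays lay within the cementoblast range (difference -0.59, SE 0.36, adjusted p = 0.885). The other genes of this class differed by -0.40 for Mia3, -0.13 for Sar1a, -0.10 for Sar1b and -0.10 for Sec24c. A second probe of Sar1b gave -0.45.

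COPI coats form vesicles that return proteins from the Golgi to the ER, and all 3 tested genes lay below 0 (median -0.41). Copb2, the beta-prime subunit of the coat, had 9.32, 9.45 and 9.48 on the cementoblast arrays, against 10.26, 9.88 and 9.85 on the osteoblast arrays. The cementoblast arrays lay within a narrow range, wholly below the osteoblast arrays. Cementoblasts averaged 9.42 ± 0.08 and osteoblasts 10.00 ± 0.23 (SD, n = 3 each), and the difference was -0.58 (95% interval -1.13 to -0.03), a fold of 0.669. The unadjusted p was 0.0422 and the limma adjusted p = 0.693, which missed the threshold. Cope, the epsilon subunit, had 8.72, 8.69 and 9.72 on the cementoblast arrays, against 10.02, 8.95 and 9.40 on the osteoblast arrays, with cementoblast array 3 and osteoblast array 1 highest. Its difference was -0.41 (SE 0.39), with the 4 probes of the gene between -0.63 and -0.36, and that of Copa, the alpha subunit, was -0.40.

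Among the receptors, which pick cargo or bring ER residents back, 4 of 5 tested genes lay below 0, with a median of -0.53, and Tmed10 joined them with the submitters' values and percentile scaling. Tmed2, a p24 family protein that shuttles in COPI and COPII vesicles, had 5.26, 4.62 and 4.88 on the cementoblast arrays, against 6.03, 5.63 and 5.46 on the osteoblast arrays. Every cementoblast array was below every osteoblast array, and 1 cementoblast array was not above background. Cementoblasts averaged 4.92 ± 0.32 and osteoblasts 5.71 ± 0.30 (SD, n = 3 each), and the difference was -0.79 (95% interval -1.44 to -0.13). Its adjusted p = 0.568 was the smallest of any member in the main fit. Copb2 took that place with the submitters' values, with percentile scaling and without background correction. In these settings the difference of Tmed2 was -0.41, -0.26 and -0.29. Its family relative Tmed10 had 9.12, 8.80 and 9.34 on the cementoblast arrays and 8.88, 8.94 and 9.30 on the osteoblast arrays, which overlapped throughout (difference 0.05, SE 0.26).

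Kdelr3, a receptor that returns proteins ending in the KDEL retrieval signal to the ER, had 7.61, 8.24 and 8.76 on the cementoblast arrays, against 9.46, 8.53 and 8.99 on the osteoblast arrays. Cementoblast array 3 was above osteoblast array 2, and cementoblast array 1 lay far below all other arrays. The difference was -0.79 (95% interval -1.66 to 0.08), a fold of 0.577 with an adjusted p = 0.761. Kdelr2, the other tested receptor of this kind, differed by -0.53. Lman1, a cargo receptor known for carrying clotting factors V and VIII, differed by -0.50. Both intervals included 0.

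Creb3l1 and Creb3l2 are transcription factors anchored in the ER membrane that raise secretory genes; in mice, Creb3l1 also drives the type I collagen gene in osteoblasts and Creb3l2 drives Sec23a in cartilage. Creb3l1 had 5.69, 5.47 and 7.09 on the cementoblast arrays, against 8.12, 6.47 and 6.09 on the osteoblast arrays. Osteoblast array 1 was highest by about 1 log2 unit over cementoblast array 3, which was itself above the other arrays of both groups. The difference was -0.81, the lowest of all members, but its 95% interval ran from -2.24 to 0.62 (adjusted p = 0.940). Creb3l2 had 4.39, 6.64 and 6.02 on the cementoblast arrays, against 5.88, 6.19 and 6.07 on the osteoblast arrays. The osteoblast arrays were close together, while cementoblast array 1 was at background and cementoblast array 2 was the highest of all. The difference was -0.36 (SE 0.53, adjusted p = 0.975), and a second probe of Creb3l2 gave 0.07.

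**Figure D2:**
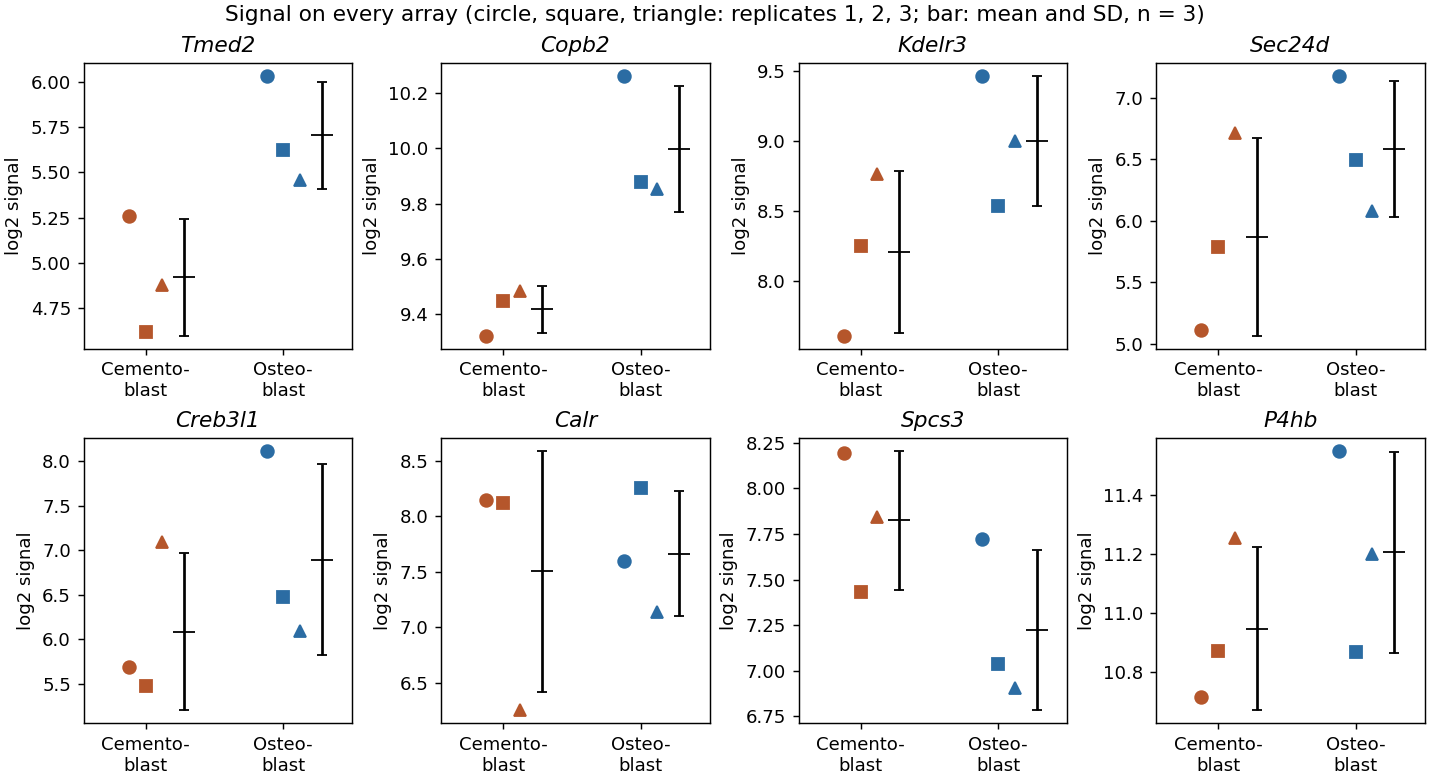
Signal of 8 members on every array, on a log2 scale that differs between panels and does not start at 0, with cementoblasts left of osteoblasts. Circles, squares and triangles are replicates 1, 2 and 3, and bars give the mean and SD (n = 3). The groups are separate for Tmed2 and Copb2 and overlap for Kdelr3, Sec24d, Creb3l1, Calr, Spcs3 and P4hb.

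Arrays of the same group differed over the members by as much as the groups did. On osteoblast array 1, 26 of 41 members (63.4%) had their highest signal of the 6 arrays, where 23.9% of all genes did. Among the cementoblast arrays, array 3 was highest for 31 of 41 members (75.6%), where it was for 47.3% of all genes. The median deviation from a gene's own mean was -0.27, -0.29 and 0.15 on cementoblast arrays 1, 2 and 3, against 0.44, -0.12 and 0.03 on osteoblast arrays 1, 2 and 3. Osteoblast array 1 thus stood highest, and cementoblast array 3 lay above osteoblast arrays 2 and 3.

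Single pairs of arrays show how far this reaches. Cementoblast array 1 minus osteoblast array 1 gave a median of -0.74 over the members, with 35 of 41 below 0, and cementoblast array 2 minus osteoblast array 1 gave -0.69, with 38 below 0. Over all genes, the medians of these pairs were -0.07 and -0.05. Of the 9 pairs, 7 had a median below 0. The other pairs were cementoblast array 3 minus osteoblast array 2, with 0.22 and 11 members below 0, and minus osteoblast array 3, with 0.09 and 16 below 0. All genes had medians of 0.11 and 0.04 in these same pairs. Within the groups, osteoblast array 1 exceeded osteoblast array 2 by a median of 0.51 (36 of 41 members higher), and cementoblast array 3 exceeded cementoblast array 2 by 0.44 (35 of 41 higher). Over all genes, these medians were 0.04 (52.5% higher) and 0.13 (56.9% higher).

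**Figure D3:**
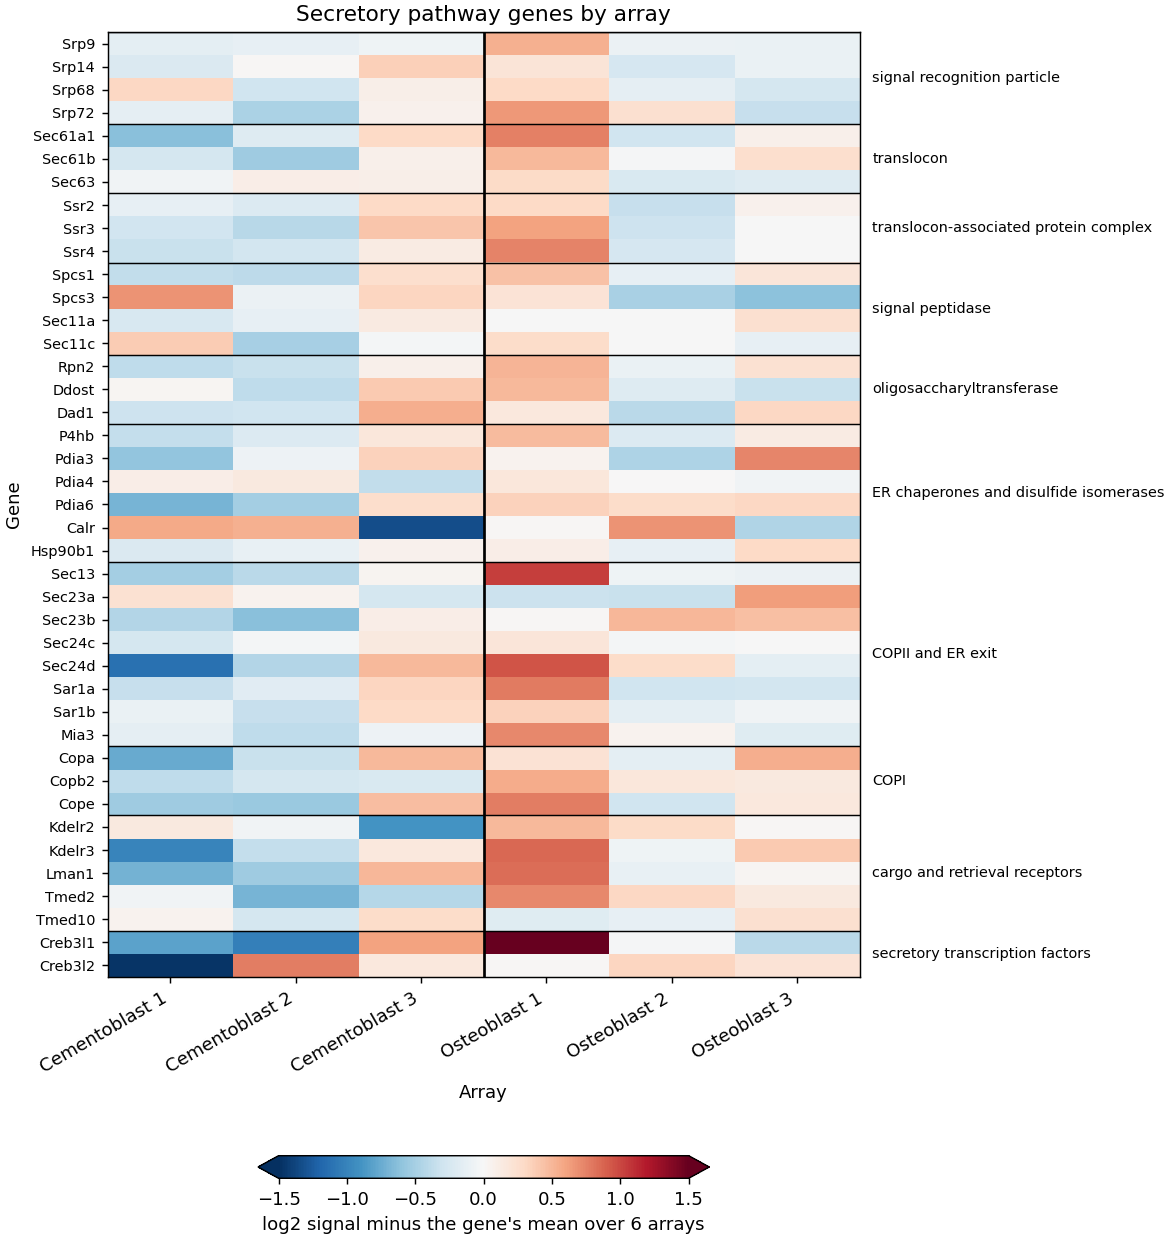
Signal of the 41 tested members on each array, as log2 signal minus the gene's mean over 6 arrays, grouped by role, with cementoblast arrays left of the line and osteoblast arrays right of it. Red is above and blue below the gene's mean. Osteoblast array 1 is the highest array for 26 members, and cementoblast array 3 is redder than cementoblast arrays 1 and 2 for most rows, with Calr and Kdelr2 as visible exceptions.

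The osteoblast pattern depended on how the arrays were scaled. With the submitters' normalised values, osteoblast array 1 was highest for 21 members, where it was for 24% of all genes. With scaling to each array's 75th percentile it was highest for only 9 of 41, where it was for 17.5% of all genes. Cementoblast array 3 stayed the highest cementoblast array for 30 members with the submitters' values and for 32 with percentile scaling. It was so for 45.3% and 54% of all genes. By the same measure within its own group, osteoblast array 1 was the highest osteoblast array for 31 members, for 27 with the submitters' values and for 11 with percentile scaling. Over all genes, these shares were 41.5%, 42.6% and 37.6%.

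Several marker lists, among them those of neutrophils and macrophages, differed along the same arrays. The mean of the 9 mineralised matrix markers was the highest of its group on cementoblast array 3 (12.17) and on osteoblast array 1 (11.78). The 10 neutrophil markers averaged 10.70, 9.33 and 7.61 on cementoblast arrays 1, 2 and 3, against 6.43, 9.32 and 9.01 on osteoblast arrays 1, 2 and 3. Their summed signal ran from 4810 to 44190 on cementoblast arrays and from 1287 to 12870 on osteoblast arrays, with 8 or 9 of the 10 detected on every array and Mmp8 detected on none. Cementoblast array 3 and osteoblast array 1, where most members were high, were the lowest of their groups in these markers.

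The 3 macrophage markers showed the same order, with a summed signal of 223.4 to 4062 on cementoblast arrays and 92.31 to 2929 on osteoblast arrays. On cementoblast array 3 and osteoblast array 1, 1 of the 3 was detected, and on each other array all 3 were. The 9 epithelial markers, keratins and enamel organ genes, summed to 265.8 to 5316 on cementoblast arrays and 182.6 to 226.1 on osteoblast arrays, with Amelx and Enam detected on none. The 5 endothelial markers summed to 96.0 to 530.2 on cementoblast arrays and 124.2 to 181.9 on osteoblast arrays, with none detected on cementoblast array 3 and Kdr detected on no array. Osteoblast array 1 was the lowest osteoblast array in neither list. On osteoblast arrays 1, 2 and 3 the epithelial sums were 226.1, 182.6 and 186.9, and the endothelial sums were 167.6, 124.2 and 181.9. Plasma and B cells, which are themselves rich in secretory machinery, had markers mostly near background. Their 8 markers summed to 220.1 to 291.8 on cementoblast arrays and 181.0 to 225.6 on osteoblast arrays. The lowest sums of the groups were on cementoblast array 3 and osteoblast array 1, with osteoblast array 3 close at 182.6. Between 1 and 3 of these markers were detected on a cementoblast array, 0 to 6 on an osteoblast array and Prdm1 on none. The highest log2 signals were those of Sdc1 on cementoblast arrays 1, 2 and 3 (6.18, 6.35 and 6.15) and of Cd79b on cementoblast array 1 (6.12). The 4 skeletal muscle markers summed to 74.3 to 82.5 on cementoblast arrays, with 0 or 1 detected, and to 113.7 to 631.6 on osteoblast arrays, with 1 to 4 detected. The part of these cells in the members' values was not tested.

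**Figure D4:**
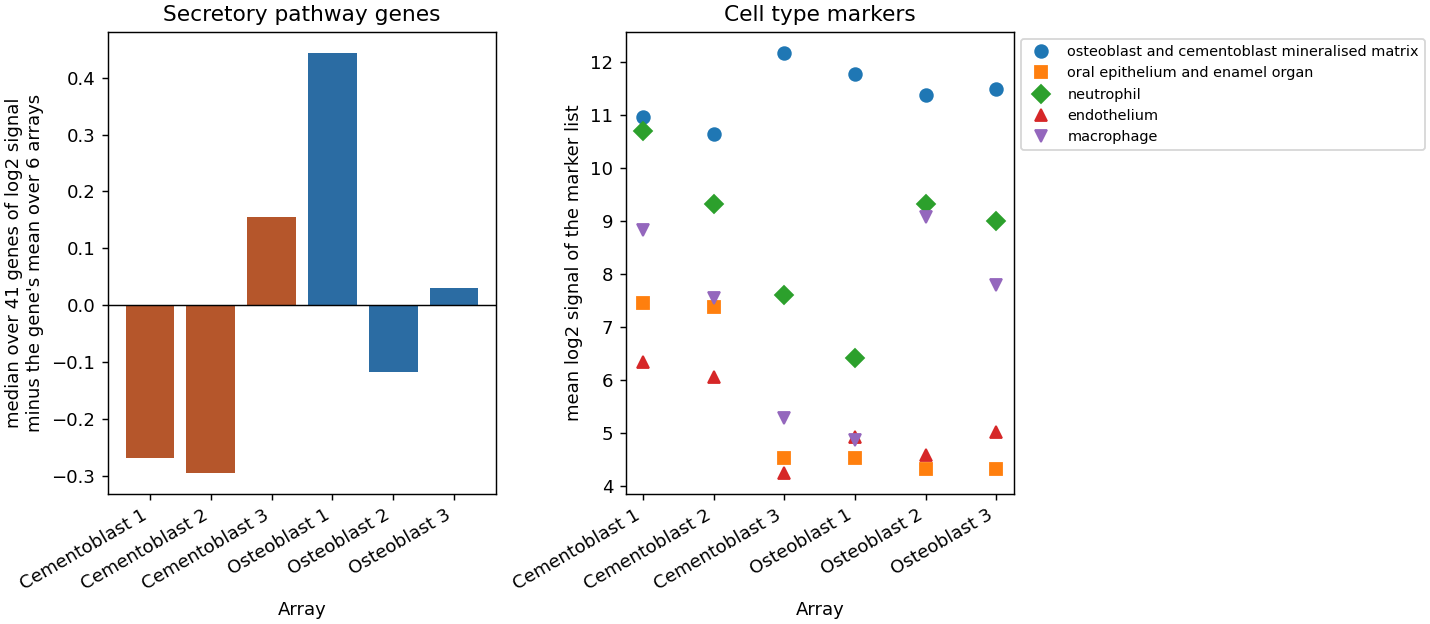
Left, the median over the 41 tested members of log2 signal minus the gene's mean over 6 arrays, for each array, with cementoblast bars in brown and osteoblast bars in blue. Right, the mean log2 signal of 5 marker lists on the same arrays. Cementoblast array 3 and osteoblast array 1 have the highest bars of their groups (0.15 and 0.44) and the lowest neutrophil means (7.61 and 6.43).

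Leaving out single arrays left the sign of the members' median but changed its size. Without cementoblast array 1 it was -0.16 and without cementoblast array 3 it was -0.43, while without osteoblast array 1 it was -0.14 and without osteoblast array 2 it was -0.39. With both cementoblast array 3 and osteoblast array 1 left out it was -0.23 over 39 tested members, 30 of them below 0, and 0 passed the test. With cementoblast array 3 alone against the osteoblasts, the median was 0.06, where all genes had 0.12.

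A wider set of 128 genes of the same pathway, from SRP receptors to Golgi tethers, gave 91 tested genes. None passed the limma test (0 of 91, beside 0.321% of all genes), 1 was lower at an unadjusted p under 0.05, Copz2 (beside 3.44%), and 0 were higher (beside 3.48%). Of these genes 72 (79.1%) lay below 0, against 52.5% of all genes, with a median of -0.20. Among those below 0, Gosr1, Arcn1, Sil1 and Creb3l3 met the detection filter through the osteoblast arrays. Their lower values in cementoblasts are partly set by that filter, here and in the class counts below. No gene of the set met it through the cementoblast arrays in this way. The groups did not overlap for 10 of the 91, all lower in cementoblasts, beside 5.57% of all genes, and 0 lay wholly above, beside 5.72%. Copz2, a COPI subunit, had 8.94, 9.28 and 9.83 on the cementoblast arrays, against 10.42, 10.00 and 10.31 on the osteoblast arrays, and is one of these 10 (difference -0.89, SE 0.30, adjusted p = 0.530). The lowest differences beside it were -1.05 for Sec16b, which organises ER exit sites, -0.96 for Creb3l3, a liver-enriched relative of Creb3l1 detected on 1 of 3 cementoblast arrays, and -0.78 for Yif1a, a membrane protein of ER to Golgi transport. The highest were 0.58 for Bcap29, an ER membrane protein, 0.53 for Tmed3, a p24 family protein, 0.52 for Tmx4, a transmembrane thioredoxin, and 0.30 for Pdia5, a disulfide isomerase. By class, the medians were -0.35 for other COPI genes (8 of 9 below 0), -0.26 for cargo receptors and tethers (27 of 32), -0.32 for other oligosaccharyltransferase genes (5 of 5) and -0.12 for other COPII genes (9 of 10). They were -0.12 for ER folding and glycan trimming (9 of 15), -0.12 for other translocon and membrane insertion genes (10 of 14) and -0.03 for the signal recognition particle and its receptor (2 of 4). The other transcription factors had -0.73 (2 of 2), including Creb3l3, which met the detection filter through the osteoblast arrays.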

How the data were processed

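RNA of sorted cells was measured in 3 cementoblast and 3 osteoblast pools. Bead intensity before normalization was deposited on a linear scale for 25697 probes, and the table pairs each value with a detection p-value, per the file headers. A second deposited table holds intensity values normalised by the submitters with lumi, per the submitters' processing notes; which normalization they chose is not given in the sources used here. Columns were matched to samples by title, and for replicate 3 of each group by tissue code and replicate number.

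Background was inferred from the detection p-values with the neqc function (limma 3.58.1, R 4.3.3, offset 16, quantile normalization, log2). Probes with detection p under 0.05 on at least 3 of 6 arrays were kept (11198), and the brightest kept probe stood for a gene (8111 genes). Symbols came from the platform annotation, in which 23978 probes had a single symbol and 1719 had none here. The difference, cementoblast minus osteoblast, was fitted by lmFit and eBayes without a replicate block, adjusted by Benjamini-Hochberg over all genes at 0.05, and again by probe. The number of arrays limits the precision. The scripts were tested on simulated data.

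The members and the gene and marker lists were chosen with earlier results of these data known. Array values are given for the brightest member of each role group, for its 2 largest differences by size and for the 3 members with the widest range within a group. The other genes named are the 4 lowest and 4 highest of the wider pathway set. Alternatives covered the submitters' values, percentile scaling, background correction, filters, variance, blocks, probe choice and leaving out arrays. Leaving out cementoblast array 3 and osteoblast array 1 together was chosen after seeing the data.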

Additional observations from a re-analysis of the deposited data

How the results depend on the processing

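Members past the test numbered 0 in each of the 19 alternatives, in some of which no gene at all passed. At an unadjusted p under 0.05 there were 0 to 7 members, with 7 (17.1%) under array weights and without cementoblast array 3, where 17.6% and 16.5% of all genes were, and 6 (14.6%) with percentile scaling and with the detected probes as a covariate, where 7.42% and 8.95% were. The members' median difference kept its sign except with cementoblast array 3 alone against the osteoblasts, where it was 0.056. It moved to -0.58 with 75th percentile scaling, where all genes had -0.08, was -0.44 with the detected probes as a covariate (38 of 41 below 0), and ran from -0.43 to -0.14 when 1 array was left out. The count of all genes past the limma test (26) was 14 with the submitters' values, 2 with percentile scaling, 17 without background correction, 8 without a detection filter and 9 with a detection p under 0.01 on all 6 arrays. It was 40 with trend and robust variance, 199 with array weights, 74 with the title number as a random block and 4 once detected probes per array were a covariate. It was 0 with cementoblast array 3 alone (615 at an unadjusted p under 0.05), where the spread comes from the osteoblast arrays only, 136 with cementoblast array 3 and osteoblast array 1 left out, and 0 to 149 when 1 array was left out, with 149 without cementoblast array 3 and 0 to 10 without any other array. By probe, 33 became 2 with percentile scaling and 0 to 170 when 1 array was left out, with 170 without cementoblast array 3. Same-numbered arrays deviated with correlations of -0.356, 0.362 and 0.0901. The titles share a number across the groups for replicates 2 and 3, not for replicate 1, and no label says what it marks. The replicate numbers were therefore not taken as pairs; with a replicate block the counts were 0 genes (568 at an unadjusted p under 0.05) and 0 probes (732).

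Of the 429 values of the 23 members given array by array, 400 kept their sign. With cementoblast array 3 alone, the sign turned for Sec61a1 (0.12), Ssr3 (0.31), Spcs1 (0.080), Dad1 (0.52), P4hb (0.042), Sec24d (0.14), Cope (0.26) and Creb3l1 (0.22). With percentile scaling it turned for Srp72 (0.18), Pdia6 (0.044) and Tmed10 (-0.47). Tmed10 also turned with the submitters' values (-0.032), array weights (-0.16) and both arrays left out (-0.16). Calr turned with array weights (0.33) and both arrays left out (0.44), Dad1 with the title number as a random block (0.011), and Srp9 with the median over its probes (0.10). Leaving out 1 array gave -0.44 to 0.057 for Ssr3, -0.33 to 0.10 for Dad1, -0.081 to 0.19 for Tmed10, -0.90 to 0.29 for Creb3l2 and -0.49 to 0.47 for Calr. The cause was not tested. Of the 41 members, 11 kept their sign throughout, 10 of them below 0. With 3 arrays a group, most differences of the size seen here lie within the intervals, and signals near background limit Pdia6, Sec23b, Tmed2 and Creb3l2.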
